A study of Mus musculus with 18 samples.

Results

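Peaks of trimethylated lysine 4 of histone H3 (H3K4me3) from erythroblasts (ERY, 2 libraries) and immature megakaryocytes (iMK, 2 libraries) were joined wherever they shared 1 bp or more, which gave 14789 merged regions. Of these, 4576 held a peak of all 4 libraries, and 508 of the shared regions (11.1%) were 5 kb or wider. These 508 broad merged regions are described here. The other 4068 shared regions, which were narrower, are the comparison where one is made. Values of the 4 libraries are given in the order ERY replicate 1, ERY replicate 2, iMK replicate 1 and iMK replicate 2. Replicate numbers follow the order of submission and pair nothing.

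All cells came from the bone marrow of adult C57BL6 mice, male by the study's methods, with no transgene or treatment. ERY were sorted as Ter119+, CD44+ and FSCLow, and iMK as CD41+ and CD61+ but Ter119-, Sca1- and cKit-, and both gates left out CD4+, CD8+, IL7Ra+, CD11b+, Ly6g+ and CD45R+ cells. Each cell type also had 2 ChIP-seq libraries of acetylated lysine 27 of histone H3 (H3K27ac), the mark that was not used to choose the regions, and 10 input libraries (4 ERY, 6 iMK) were not analysed here. The 4 H3K4me3 lists held 8841, 6275, 7578 and 13222 peaks over 16.0, 9.02, 11.3 and 33.8 Mb, and the 4 H3K27ac lists held 25750, 21768, 22931 and 24781 peaks over 77.0, 64.9, 42.9 and 53.2 Mb. Defining genes of the 2 gates were checked by peaks within 1 kb of a start site. Of 8 erythroid genes, 8 and 6 had H3K4me3 in ERY, and 1 and 2 in iMK. H3K27ac peaks lay at 8 and 8 of these genes in ERY, and at 1 and 1 in iMK. Of 8 megakaryocyte genes, 2 and 4 had H3K4me3 in iMK, and 0 and 0 in ERY. At the megakaryocyte genes, the H3K27ac counts went against the gate, with 2 and 3 of the 8 in iMK, but 4 and 4 in ERY (Itga2b, Gp1ba, Gp9 and Vwf in both). Itga2b, which encodes the sort marker CD41, had no H3K27ac peak in either iMK library and an H3K4me3 peak in iMK replicate 2 alone. Itgb3, which encodes the sort marker CD61, and Fli1 had peaks of both marks in both iMK libraries and no peak in ERY. Of 8 neutrophil and monocyte genes, 0 and 0 had H3K27ac in ERY, and 6 and 8 in iMK, so the samples are called the libraries labelled iMK below. Of 7 lymphoid genes, 2 and 3 had H3K27ac in them. What part other myeloid cells took in the results was not tested.

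H3K4me3 is laid down by SET1 and MLL methyltransferases around the start sites of genes that are transcribed or poised, where unmethylated CpG-rich DNA recruits them. At most active genes it forms a peak of a few nucleosomes on each side of the start, but at a minority it spreads into the gene body, and such broad domains have been found at genes that define a cell's identity, at regulators of growth and at tumor suppressors. H3K27ac, placed by the acetyltransferases EP300 and CREBBP, marks active promoters and enhancers. Erythroblasts and megakaryocytes descend from a shared progenitor and use many of the same transcription factors.

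Promoter sequences are shown for regions whose values follow: genes under the longest regions (Foxo3, Arid1a, Malat1), 1 start of Tal1, and both starts of Runx1, each of which lay under a broad region of its own. Bases are from RefSeq on GRCm38.p6, read 5' to 3' toward the gene, and end at the last base before the annotated start or where an annotated exon begins. CpG dinucleotides are in capitals.
Foxo3, chr10:42276756-42276945, minus strand: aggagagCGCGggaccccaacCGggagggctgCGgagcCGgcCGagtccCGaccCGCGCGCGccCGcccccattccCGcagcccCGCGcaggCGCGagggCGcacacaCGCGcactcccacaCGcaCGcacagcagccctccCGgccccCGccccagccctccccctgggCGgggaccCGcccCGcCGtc
Arid1a, chr4:133756770-133757019, minus strand: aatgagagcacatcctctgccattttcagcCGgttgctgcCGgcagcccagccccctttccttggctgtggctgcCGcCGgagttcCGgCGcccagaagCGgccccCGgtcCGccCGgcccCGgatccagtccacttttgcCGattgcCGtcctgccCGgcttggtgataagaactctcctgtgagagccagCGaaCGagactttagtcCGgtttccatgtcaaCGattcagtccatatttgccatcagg
Malat1, chr19:5802673-5802922, minus strand: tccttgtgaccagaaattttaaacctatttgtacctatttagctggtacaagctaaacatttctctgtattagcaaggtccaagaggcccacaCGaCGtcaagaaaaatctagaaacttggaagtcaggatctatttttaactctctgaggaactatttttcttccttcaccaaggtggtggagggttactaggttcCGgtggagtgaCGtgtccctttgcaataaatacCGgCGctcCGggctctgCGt
Tal1, chr4:115056176-115056425, plus strand: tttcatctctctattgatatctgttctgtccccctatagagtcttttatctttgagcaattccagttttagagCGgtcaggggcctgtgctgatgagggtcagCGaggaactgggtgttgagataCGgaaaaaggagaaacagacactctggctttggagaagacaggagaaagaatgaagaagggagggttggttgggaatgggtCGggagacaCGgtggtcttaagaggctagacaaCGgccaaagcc
Runx1 distal start, chr16:92826150-92826324, minus strand: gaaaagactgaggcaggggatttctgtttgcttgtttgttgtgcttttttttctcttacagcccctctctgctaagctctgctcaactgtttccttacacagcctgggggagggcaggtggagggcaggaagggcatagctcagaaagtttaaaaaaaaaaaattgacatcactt
Runx1 proximal start, chr16:92697330-92697579, minus strand: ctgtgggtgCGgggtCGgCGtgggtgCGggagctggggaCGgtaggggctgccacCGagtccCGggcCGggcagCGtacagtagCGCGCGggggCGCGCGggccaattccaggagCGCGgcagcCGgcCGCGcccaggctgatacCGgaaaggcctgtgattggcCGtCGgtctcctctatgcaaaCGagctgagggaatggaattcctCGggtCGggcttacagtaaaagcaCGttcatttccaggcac

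The 6 stretches differed widely in CpG. The Foxo3 stretch had 28 CpGs in 190 bases and the proximal Runx1 stretch 27 in 250, whereas the distal Runx1 stretch had 0 in 175, the Tal1 stretch 6 and the Malat1 stretch 8 in 250. Over all 20150 protein-coding starts of the RefSeq table, the median was 10 CpGs in the 250 bases before the start. The letters AGATAA, the core of the site bound by GATA factors, were searched on both strands. Of the stretches printed, only that of Tal1 held them, as ttatct beginning at position -205 relative to the start, and 8.62% of all 20150 stretches of 250 bases held them. Other forms of the site, such as the tgataa in the Arid1a stretch, were not searched. A match is a description of letters and not a binding site.

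The label of broad in both cell types held for the merged regions but for few of the single lists. The merged regions were 5000 to 16200 bp wide with a median of 5800 bp. Within them, the H3K4me3 peaks of the 4 libraries covered medians of 3600, 2400, 2200 and 5400 bp, and 126, 33, 18 and 405 regions had 5 kb or more covered. No library reached 5 kb in 49 regions, 1 library did in 369, 2 in 63, 3 in 21 and all 4 in 6. Replicate 2 of iMK, whose list covered the most bases, was alone the longest of the 4 in 401 regions, ERY replicate 1 in 91, ERY replicate 2 in 3 and iMK replicate 1 in 1. Without that iMK library, 129 regions met the rule, and 128 of the 508 overlapped one of them. The stretch covered by all 4 libraries had a median of 1600 bp and a maximum of 5800 bp, and was 0 bp in 5 regions: Gucd1/Snrpd3, Hist2h2aa1/Hist2h3c1, Rnf213, Capzb and the region nearest Zfp978. Lengths are a description, since they chose the regions.

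**Figure D1:**
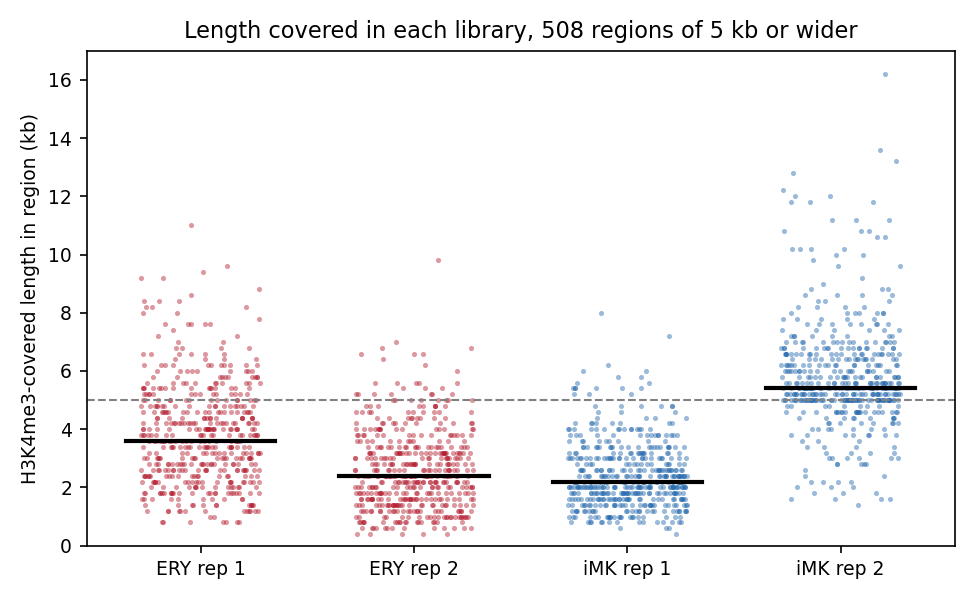
Length covered by H3K4me3 peaks (y axis, kb) in each of the 508 broad merged regions, 1 point a region, for the 4 libraries (ERY red, iMK blue), with the median as a black bar and 5 kb as a dashed line. The medians were 3600, 2400, 2200 and 5400 bp, and 405 regions reached 5 kb in iMK replicate 2 against 18 in iMK replicate 1.

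The libraries of 1 cell type ranked the 508 regions by length more alike in ERY (Spearman's rho 0.74) than in iMK (0.38), and rho between cell types ran from -0.18 to 0.22. These rho describe regions, which are not replicates and were chosen by length. Over all 4576 shared regions the values were 0.67, 0.51 and 0.38 to 0.50. At the edge of the rule, 76 regions were exactly 5000 bp wide and 91 shared regions were 4800 bp. Just inside were Vapa (4600, 1400, 4000 and 5000 bp) and Fam78a (4600, 4000, 3200 and 5000 bp). Just outside were Ggnbp2 (4600, 4400, 2600 and 4000 bp), Hk1 (4200, 4400, 1400 and 4000 bp) and Ptbp3 (4800, 3400, 2200 and 4800 bp). The H3K4me3 lengths on the 2 sides of the threshold overlapped.

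The 6 regions with 5 kb or more in every library covered genes of chromatin regulation, blood transcription factors and a nuclear noncoding RNA. Setd1b (chr5:123135201-123146400), itself a catalytic subunit of a SET1 H3K4 methyltransferase complex, had 9600, 6400, 6200 and 11200 bp. Foxo3 (chr10:42268601-42279000), a forkhead factor active in erythroid maturation and stress resistance, had 9200, 6600, 5200 and 10200 bp. Both reached more than 5 kb in the library with the shortest stretch. Bcl11a, with A830031A19Rik (chr11:24074401-24082600), a zinc finger repressor of embryonic globin genes in mice, had 8200, 6800, 5800 and 7800 bp, and its 5800 bp covered by all 4 libraries was the longest such stretch of the 508. Arid1a (chr4:133750001-133758000), a DNA-binding subunit of the BAF remodeling complex, had 6600, 5400, 5400 and 8000 bp. Brd2 with H2-DMa (chr17:34115201-34125200), a bromodomain reader of acetylated histones and a class II peptide-loading gene, had 6200, 5200, 5800 and 10000 bp. Malat1 with Gm37376 (chr19:5796801-5805200), a long noncoding RNA of nuclear speckles, had 7600, 5600, 5400 and 7600 bp. Replicate 2 of iMK was the longest or joint longest in 5 of the 6, and ERY replicate 1 in 2.

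Other regions were long by the median of the 4 libraries but short in at least 1. Nfe2 (chr15:103249001-103261200), a bZIP factor of globin and platelet genes, had 8000, 7000, 3800 and 12200 bp. Its shortest stretch was in iMK replicate 1. A histone cluster region from Hist1h2ad to Hist1h3d had 8400, 6600, 1600 and 9800 bp, and the Junb region, which also holds Prdx2 and Rnaseh2a, 9200, 4400, 3000 and 10800 bp. Ehbp1l1/Fam89b had 7600, 5600, 3600 and 7800 bp. The widest merged region, Irf2bp2 (chr8:126581601-126597800), a corepressor gene, had 6800, 800, 5400 and 16200 bp, so its 16200 bp came from iMK replicate 2.

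Nearly all regions lay over genes. A protein-coding start was inside 497 of 508 (97.8%; 97.9% of narrower shared regions), and 629 distinct protein-coding genes had one there. The region held 1 such gene in 382 cases and more in 115 (22.6%; 20.5% of narrower regions), up to 5. Starts of noncoding genes were inside 25.8% (16.4%), and annotated miRNA genes inside 34 regions (6.69%; 1.77%), which is a share per region that was wider by the rule. Of the 34 regions, 9 were among the 12 regions with clustered histone genes, where the annotation lists short RNA models. Mir142, a miRNA of blood cells, lay in the Tspoap1 region (2400, 3000, 2000 and 12000 bp), Mir22 in the Tlcd2 region (3000, 1400, 1600 and 6600 bp) and Mirlet7i in a region of its own (4000, 3600, 2400 and 5600 bp). These 3 were chosen after their values were seen, and in each the longest stretch was in iMK replicate 2.

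Only 11 regions had no protein-coding start. Besides Malat1, these covered Neat1, the RNA scaffold of paraspeckles (5000, 2600, 2600 and 13600 bp), Lockd, a transcript just downstream of the cell cycle inhibitor gene Cdkn1b (7600, 5200, 3800 and 7400 bp), and Dleu2, the host of Mir15a and Mir16-1 (5800, 3200, 3200 and 5400 bp in its longer region). These genes were singled out after their values were seen. In 3 regions, nearest Hfe2, Zfp978 and Tex44, no start of any kind was annotated. The Zfp978 region (1600, 2800, 7200 and 1400 bp) was the 1 region in which iMK replicate 1 alone was longest. It had no CpG-island-like window and had no base covered by all 4 libraries. No broad region lay on chromosome X, where 3 shared regions lay in all, and 61 (12%) lay on chromosome 11, against 8.46% of narrower shared regions.

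The regions extended into genes. In the 382 with 1 protein-coding gene, the merged region reached a median of 1887 bp upstream of the outermost start and 4002.5 bp downstream, and the downstream side was the longer in 85.3% (84.5% of the 3148 narrower regions with 1 gene). By library, the median downstream reach was 2607.5, 1793.5, 1627.5 and 3675.5 bp, and the upstream reach 917.5, 538.5, 511.5 and 1793 bp. The downstream reach was the longer in every library, in 80.4% to 86.6% of regions. Starts of 1 gene lay 1 kb or more apart in 55 of the 382 (14.4%; 2.06% of narrower regions), as at Tal1 and Arid1a. A wider region has room for more starts, so the 2 shares are not on equal footing.

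**Figure D2:**
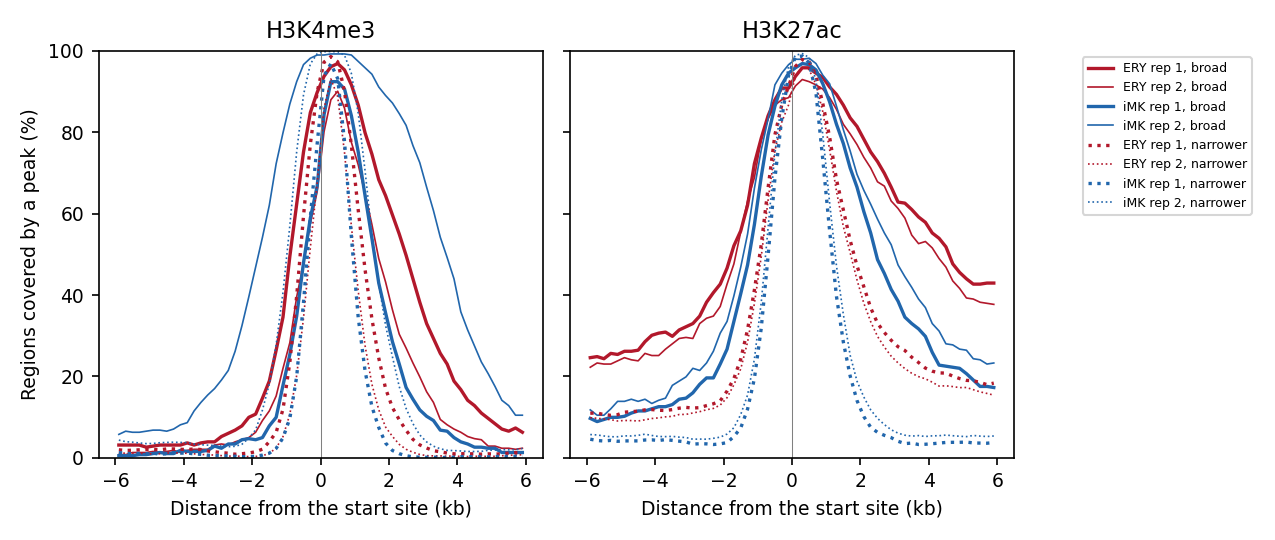
Percent of regions with 1 protein-coding gene that a peak covered at each distance from the start (x axis, kb, positive into the gene), for H3K4me3 (left) and H3K27ac (right), in broad (solid, 382 regions) and narrower shared regions (dotted, 3148) and each library. At 2900 bp into the gene, H3K4me3 covered 38.2%, 19.9%, 11.8% and 72.5% of broad regions, and H3K27ac 66.5%, 63.1%, 41.4% and 52.4%.

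H3K27ac, which chose no region, extended in the same direction. At 2900 bp into the gene it covered 66.5%, 63.1%, 41.4% and 52.4% of broad regions, and at 2900 bp upstream 33.0%, 29.3%, 16.0% and 22.0%. In narrower regions the downstream values were 28.9%, 25%, 4.96% and 6.89%. Broad regions thus had H3K27ac further into the gene than narrower ones in all 4 libraries, by 36.4 to 45.5 percentage points, which is a description without a test. The width rule enters this difference. The distance of 2900 bp lies within the median downstream reach of broad regions (4002.5 bp) but beyond that of narrower ones (1709.5 bp).

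In base composition the broad regions had more CpGs in all but a lower CpG density than the narrower ones. Median GC content was 50.6% against 51.0%, and the ratio of observed to expected CpG 0.50 against 0.61. The median number of CpGs was 194 against 112. Windows of 200 bp with GC of at least 50% and a CpG ratio of at least 0.6 covered a median of 1200 bp, against 800 bp. Only 4 broad regions (0.787%; 0.762% of narrower) had no such window. The length of those windows and the covered length had a Spearman's rho of 0.25, 0.21, 0.42 and 0.19 over the 508 regions, a description in which the points share the width threshold and base composition. At the starts themselves, the 594 RefSeq promoters inside broad regions had a median of 26 CpGs in 300 bases, against 25 inside narrower shared regions and 14 over all protein-coding promoters. CCGGAAG, a core of sites bound by ETS factors, was in 15.2% of promoters in broad regions, 27.9% in narrower shared regions and 11.9% of all promoters, and AGATAA in 3.87%, 4.90% and 9.45%. Both motifs were searched on both strands of windows of 300 bases.

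By gene list, transcription factors of blood, immediate early genes and clustered histone genes had broad regions most often. Over all 21924 protein-coding gene names, 628 (2.86%) had a start in a broad region, and this was 11.6% of names with a start in any shared region. Of 47 blood transcription factors, 17 had a broad region (36.2%) and 9 a narrower one. Of 34 immediate early and feedback genes, 12 had a broad region, of 32 clustered histone genes 11, of 48 histone and chromatin regulators 12, and of 28 tumor suppressor and cell cycle inhibitor genes 6. The 11 histone genes lay in 7 regions, so 1 region can count for more than 1 gene of that list. Of 22 housekeeping genes, 5 had a broad region. Only 2 of 56 ribosomal protein genes had one (Rpl3, Rpl18), although 43 had a narrower region. Of 41 red cell genes, 6 had a broad region and 10 a narrower one, and of 34 platelet and megakaryocyte genes 2 (Myh9, Tln1) and 3. Of their genes with any shared region, the broad share was 37.5% and 40%, the latter from few genes. Of 24 myeloid, 20 lymphoid and 14 stem and progenitor genes, 0 had one. The last 3 lists had few chances, since 0, 1 and 1 of their genes had any shared region. The lists were compiled with earlier results of these data known, and the counts were not tested.

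**Figure D3:**
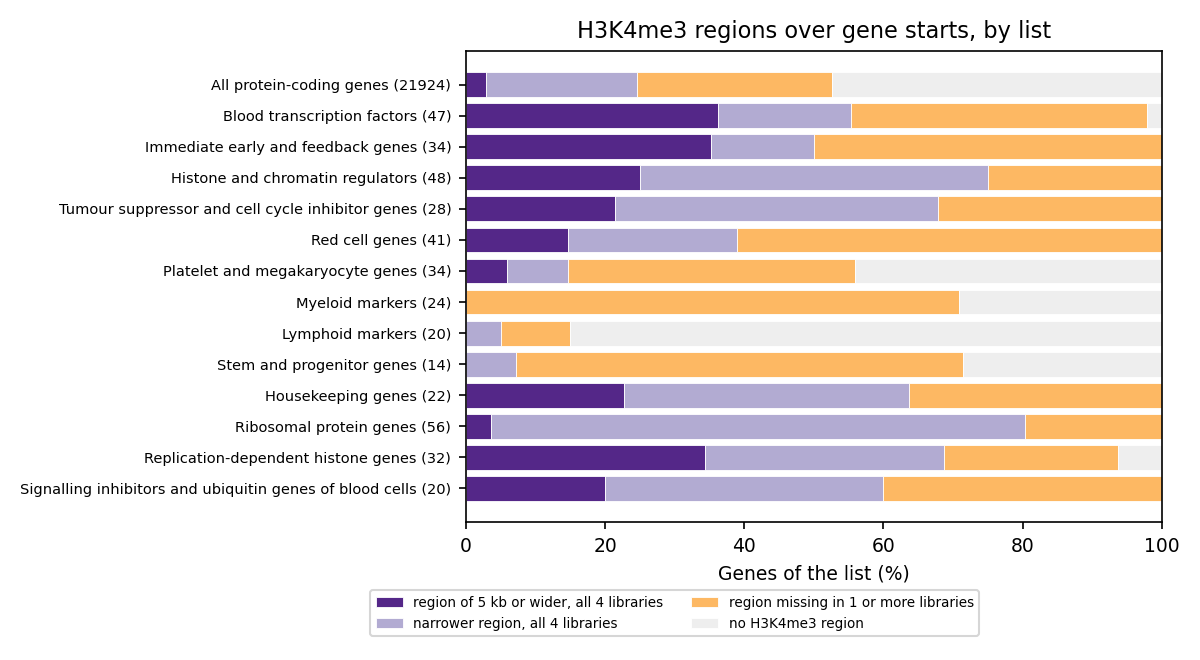
Share of the genes of each list (x axis, percent, with the number of genes in parentheses) whose start lay in a broad merged region, in a narrower region called in all 4 libraries, in a region missing from at least 1 library, or in none. Blood transcription factors had broad regions at 17 of 47 and ribosomal protein genes at 2 of 56, against 628 of 21924 names overall.

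The independent mark, H3K27ac, was present at nearly all of the regions in both cell types. All 4 libraries had H3K27ac inside 493 of 508 (97.0%; 97.6% of narrower regions). It covered medians of 86.5%, 85.2%, 70.0% and 76.7% of the region, close to the 86.7%, 83.3%, 68.8% and 73.7% of narrower regions. To compare cell types, the percent of each region with 5 kb on each side covered by H3K27ac peaks was tested with limma over all 4576 shared regions. At an adjusted p under 0.05, H3K27ac was higher in ERY at 192 of the 508 (37.8%), beside 29.1% of all regions tested, and higher in the libraries labelled iMK at 50 (9.84%), beside 4.09%. The median difference, ERY minus iMK, was 12.4 percentage points over the 508 and 7.58 over all regions tested. The ERY lists covered more of the genome, and this split depended on scaling. With each library set to the same median, 174 (beside 22.2%) and 121 (beside 23%) regions were higher in ERY and iMK. After quantile normalization these were 87 (beside 16%) and 177 (beside 14.9%). The share of calls that were higher in ERY was thus 79.3%, 59.0% and 33.0% under the 3 scalings. All 50 iMK calls and 87 of the 192 ERY calls held under all 3. Both other scalings moved the median difference over the 508 toward iMK, to 3.43 points with equal medians and -9.74 after quantile normalization. Holding under all 3 is thus a weaker check of iMK calls than of ERY calls, here and below. Both ERY libraries were above both iMK libraries at 293 regions (57.7%, beside 56.2% of all), and below at 110 (21.7%, beside 12.8%). With 2 libraries a group, each call leans on the spread shared over regions. Without ERY H3K27ac replicate 1 there were 72 (14.2%, beside 11.7% of all) and 8 calls (1.57%, beside 1.16%). Without ERY H3K27ac replicate 2 there were 94 and 11, and the share higher in ERY, 18.5%, was then no larger than over all regions, 19.4% (in iMK 2.17%, beside 1.29%). Without either iMK H3K27ac library there were 0 calls by limma, with 231 and 237 of the 508 at an unadjusted p under 0.05. An exact permutation test of 2 against 2 cannot give a two-sided p under 0.333. Among the 129 regions found without iMK H3K4me3 replicate 2, 89 were higher in ERY (69.0%, beside 28.6% of the 4602 regions of that fit) and 1 in iMK (0.775%, beside 4.13%). With that list left out, the width of a region rests on the ERY lists and on iMK replicate 1, the library with the shortest median of the 4. In the main set, iMK replicate 2 was alone the longest in 401 of the 508. What part the choice of regions took in either split was not tested.

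**Figure D4:**
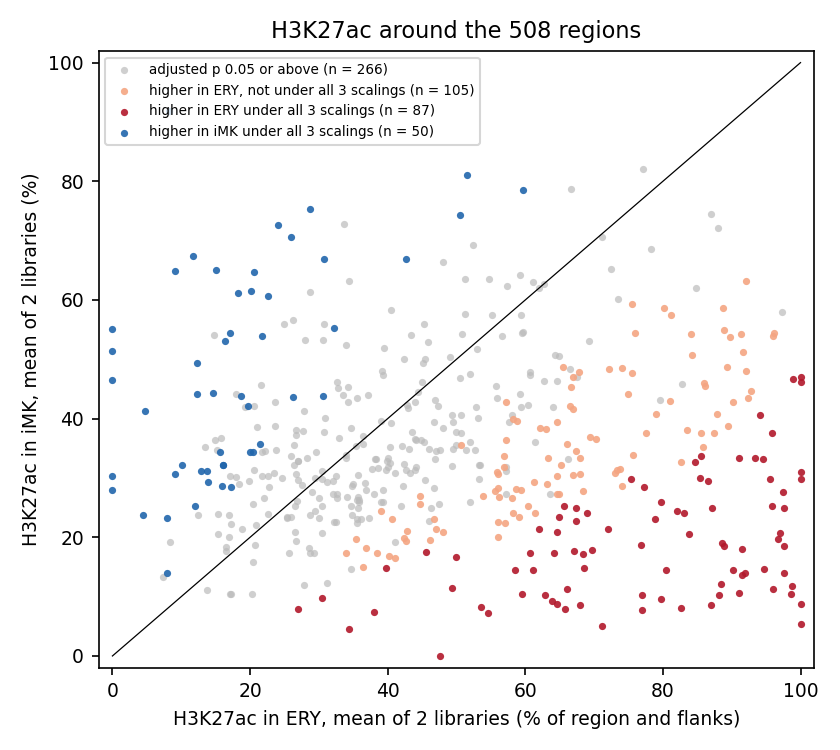
H3K27ac in ERY (x axis) against iMK (y axis), each the mean of 2 libraries in percent of the region with 5 kb on each side, 1 point for each of the 508 regions, with the line of equality. Under all 3 scalings 87 regions were higher in ERY (dark red) and 50 in iMK (blue), and 105 were higher in ERY without holding under all 3 (orange).

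Before scaling, H3K27ac was mostly higher in ERY where H3K4me3 was longer in both ERY libraries. Where H3K4me3 was longer in both iMK libraries, H3K27ac before scaling was higher in iMK at a minority. In 37 regions both ERY libraries had longer H3K4me3 than both iMK libraries (beside 3.04% of all shared regions), and in 87 the reverse held (beside 14%). H3K27ac was higher in ERY at 34 of the 37, of which 32 held under all 3 scalings, and higher in iMK at 0, with a median difference of 65.8 points. Of the 87, H3K27ac was higher in iMK at 30, all of which held under all 3 scalings, and in ERY at 7, with a median difference of -10.5 points. In the other 384 regions, 151 (39.3%) were higher in ERY and 20 (5.21%) in iMK, beside 37.8% and 9.84% of the 508. Over the 508, calls higher in iMK were 50 before scaling, 121 with equal medians and 177 after quantile normalization. The 87 regions were not counted under each of the other scalings, so the minority is a result before scaling. The 2 groups were made from H3K4me3 lengths after their values were seen, and their counts were not tested against each other.

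Red cell genes had the largest median difference of the 13 lists. All 6 of their broad regions were higher in ERY, beside 37.8% of the 508. Their median difference was 68.6 points, beside 12.4 points over all 508 regions. Fech (chr18:64484001-64490000), ferrochelatase, which inserts iron into protoporphyrin, had 6000, 4200, 800 and 1600 bp of H3K4me3. Its H3K27ac covered 100%, 100%, 10% and 7.5% (difference 91.2 points, SE 3.19, limma adjusted p = 0.00597). H3K27ac was long in both ERY libraries and short in both iMK libraries. H3K4me3 was too, but its length entered the choice of regions, and Fech reached 5 kb in ERY replicate 1 alone. Alad (chr4:62514401-62520800), aminolevulinate dehydratase of heme synthesis, had 6200, 5600, 1600 and 1600 bp of H3K4me3 and 91.5%, 85.4%, 11% and 13.4% of H3K27ac (difference 76.2 points, SE 3.90, limma adjusted p = 0.00597). Slc25a37 (chr14:69280001-69287000), mitoferrin, the mitochondrial iron importer, had 6200, 5000, 1200 and 4000 bp and 91.8%, 100%, 27.1% and 23.5% (difference 70.6 points, SE 4.50, limma adjusted p = 0.00597). At these genes the groups did not overlap in H3K27ac. They did not overlap in H3K4me3 either, but each gene reached 5 kb of it in ERY lists alone, so its length is no separate support.

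Tfrc, the transferrin receptor, had 5200, 2400, 1000 and 2800 bp of H3K4me3, where the groups overlapped, and 79.5%, 74.4%, 8.97% and 11.5% of H3K27ac, where they did not (difference 66.7 points, limma adjusted p = 0.00597). Bcl2l1 (chr2:152825401-152832200), the survival factor BCL-XL of late erythroblasts, had 6600, 4200, 1400 and 2000 bp and 58.3%, 48.8%, 8.33% and 8.33% (difference 45.2 points, limma adjusted p = 0.00933). All 6 calls held under the 3 scalings. Outside the list, and chosen after their values were seen, regions at 3 further genes of iron and heme supply were higher in ERY: Glrx5, an iron-sulfur cluster glutaredoxin (97.5%, 97.5%, 17.3% and 19.8%), Abcb10, a mitochondrial transporter of erythroid cells (82.1%, 77.4%, 9.52% and 9.52%), and Slc11a2, the iron transporter DMT1 (65.8%, 65.8%, 3.95% and 11.8%). In all 3 the ERY libraries lay far above the iMK libraries.

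**Figure D5:**
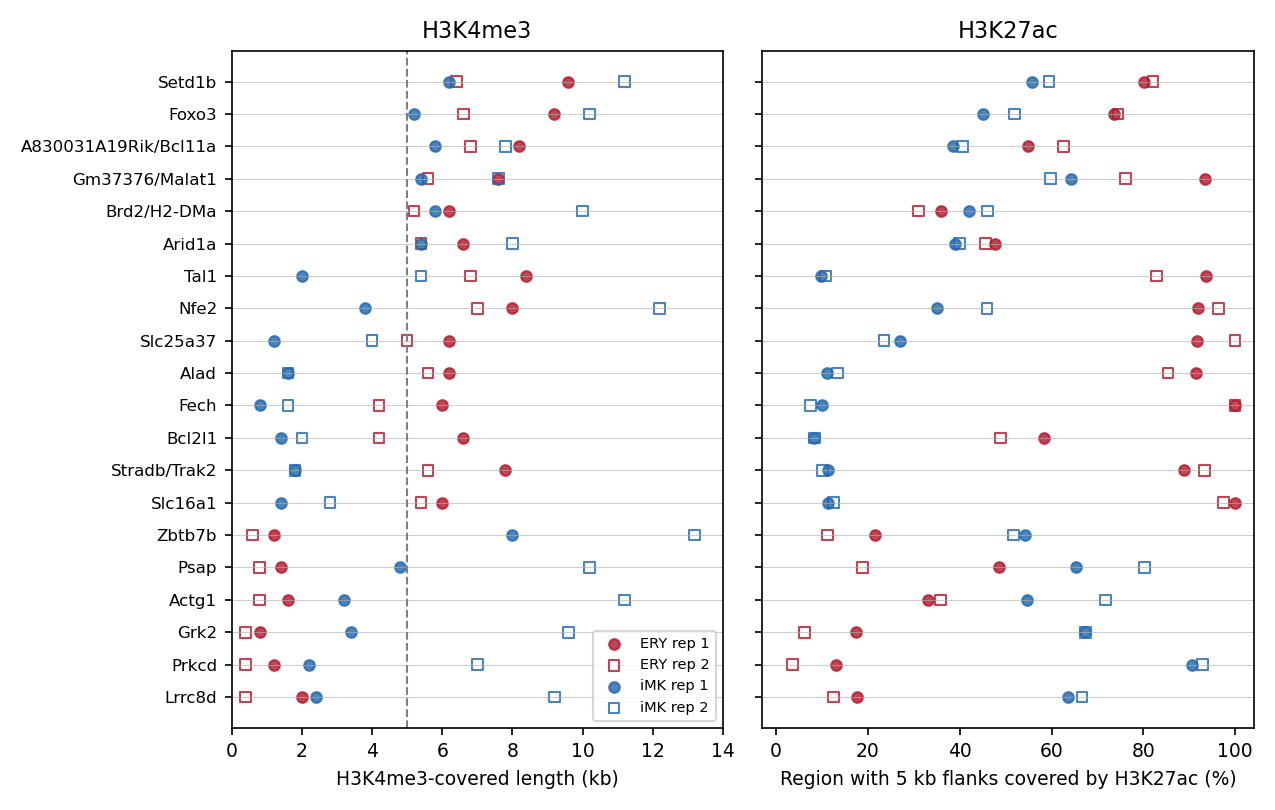
H3K4me3-covered length (left, kb, with 5 kb dashed) and H3K27ac coverage of the region with 5 kb on each side (right, percent) of 20 named regions, 1 symbol a library (ERY red, iMK blue, replicate 1 filled, replicate 2 open). The top 6 reached 5 kb of H3K4me3 in every library. From Tal1 to Slc16a1 the ERY libraries had the more H3K27ac, and from Zbtb7b to Lrrc8d the iMK libraries did.

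Of 18 broad regions over 17 blood transcription factors, H3K27ac was higher in ERY at 10 (beside 37.8% of the 508) and in iMK at 1 (beside 9.84%), Mef2d. Tal1 (chr4:115055401-115064000), the bHLH partner of GATA1 that is required for both lineages, had 8400, 6800, 2000 and 5400 bp of H3K4me3. Its H3K27ac covered 93.5%, 82.8%, 9.68% and 10.8% (difference 78.0 points, SE 5.04, limma adjusted p = 0.00600). Nfe2 had 91.9%, 96.4%, 35.1% and 45.9% (difference 53.6 points, SE 5.25, limma adjusted p = 0.00942). Both were higher in ERY under all 3 scalings, and both have megakaryocyte as well as erythroid roles. Without flanks, Tal1 was still called (limma adjusted p = 0.0112) and Nfe2 was not (26.2 points, limma adjusted p = 0.154). The region of Elf1, an ETS factor, was also higher in ERY under all 3.

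The other ERY calls on this list depended on scaling. Foxo3 had 73.5%, 74.5%, 45.1% and 52.0% (difference 25.5 points, SE 3.97, limma adjusted p = 0.0216), which became -8.71 after quantile normalization (adjusted p = 0.204). Bcl11a had 54.9%, 62.6%, 38.5% and 40.7% (difference 19.2 points, SE 4.25, limma adjusted p = 0.0433), which became -8.87 (adjusted p = 0.279). At both, ERY libraries were above iMK libraries before scaling. Lmo2, a bridging protein of the TAL1 complex, had 96.1%, 75%, 36.8% and 38.2% (difference 48.0 points, limma adjusted p = 0.0270). Klf13 had 86.2%, 81.9%, 47.9% and 60.6%, E2f2, a cell cycle factor of erythroblasts, 94.2%, 83.5%, 52.4% and 57.3%, and the Lyl1/Nfix/Trmt1 region 77.4%, 73.6%, 46.2% and 49.1%. In all 4 regions the cell types did not overlap, and all 4 calls were lost after quantile normalization, under which 3 regions of this list were higher in ERY and 5 in iMK. Mef2d, a MADS-box factor, had 1800, 1600, 3800 and 10200 bp of H3K4me3 and 46.5%, 54.5%, 73.3% and 75.2% of H3K27ac (difference -23.8 points, limma adjusted p = 0.0283), higher in iMK under all 3 scalings.

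Runx1, a factor of both lineages and of the blood stem cell, had a broad region at each of its 2 promoters. The distal region (chr16:92821001-92827400) had 3200, 2000, 2200 and 6400 bp of H3K4me3 and 69.5%, 59.8%, 37.8% and 54.9% of H3K27ac (difference 18.3 points, limma adjusted p = 0.159). The proximal region (chr16:92693401-92699000) had 2200, 2200, 2200 and 5600 bp and 12.8%, 14.1%, 23.1% and 47.4% (difference -21.8 points, limma adjusted p = 0.156). The 2 differences had opposite signs and neither passed the test before scaling, but the proximal region was higher in iMK with equal medians (-30.8 points, adjusted p = 0.0109) and after quantile normalization (-34.8 points, adjusted p = 0.0200). Whether they differ from each other was not tested. As the sequences above show, the distal promoter, with 0 CpGs in the stretch printed, and the proximal one, with 27, both carried such a region. Myc had 5200, 3400, 4200 and 6200 bp of H3K4me3 but only 18.5%, 16.0%, 24.7% and 19.8% of H3K27ac, and Ikzf1, which encodes Ikaros, 3600, 3200, 4400 and 7800 bp with 70.8%, 74.2%, 64.0% and 66.3%. Neither passed the test before scaling (limma adjusted p = 0.242 and 0.169), and each was called higher in iMK under 1 other scaling, Myc with equal medians and Ikzf1 after quantile normalization.

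All 7 regions that hold listed clustered histone genes were higher in ERY, beside 37.8% of the 508. Their median difference was 50.6 points, beside 12.4 over the 508. With equal medians 7 of the 7 calls held, beside 34.3% of the 508 called higher in ERY. After quantile normalization only 3 did (Hist1h2ad to Hist1h3d, Hist1h2bh/Hist1h3f and Hist3h2a/Trim17), beside 17.1%. The median difference was then 17.6 points, beside -9.74 over the 508. These genes encode the core and linker histones made during DNA replication. The Hist1h2ad to Hist1h3d region had 100%, 100%, 41.4% and 52.5% of H3K27ac (difference 53.0 points, SE 5, limma adjusted p = 0.00919) and the Hist1h2bh/Hist1h3f region 100%, 100%, 42.9% and 49.4% (53.9 points, SE 3.72, limma adjusted p = 0.00637). Both were completely covered in ERY. Hist1h4d, whose call was lost after quantile normalization, had 84.7%, 94.1%, 32.9% and 44.7%, and Hist3h2a/Trim17 84.0%, 86.7%, 28% and 32%. Near-identical copies of these genes can share reads. The study's methods describe a ChIP-seq pipeline that kept multiply mapping reads, but they name another peak caller than the processing notes of these lists. Whether that pipeline made these lists is not given in the sources used here, so a value is uncertain for a single copy. Cell cycle genes outside the lists, chosen after their values were seen, were higher in ERY under all 3 scalings: Rrm2, a ribonucleotide reductase subunit, had 92.8%, 90.4%, 13.3% and 22.9%, and Mki67 75.9%, 78.5%, 29.1% and 27.8%.

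Immediate early and feedback genes respond fast to signals, and their transcripts are short-lived. H3K27ac was higher in ERY at 4 of their 12 regions (beside 37.8% of the 508) and in iMK at 1 (beside 9.84%). After quantile normalization these were 1 and 6 (beside 17.1% and 34.8% of the 508). Btg2 (chr1:134073601-134080000), an antiproliferative gene, had 5400, 5600, 2600 and 5200 bp of H3K4me3 and 96.3%, 97.6%, 15.9% and 25.6% of H3K27ac (difference 76.2 points, SE 4.75, limma adjusted p = 0.00597). Its relative Btg1 had 2600, 1400, 5200 and 6800 bp and 16.7%, 15.5%, 28.6% and 35.7% (difference -16.1 points, SE 3.47, limma adjusted p = 0.0414). The 2 relatives were called in opposite directions, each under all 3 scalings. The Junb region was called higher in ERY (difference 21.6 points, limma adjusted p = 0.0179) but became -13.3 after quantile normalization (adjusted p = 0.0890). Pim1, a kinase gene downstream of STAT5, had 60.2%, 59.1%, 45.5% and 63.6%, and Zfp36l2, which encodes an mRNA-destabilizing protein, 49.5%, 41.3%, 52.3% and 47.7%. Their groups overlapped, and neither passed the test before scaling. Pim1 and Zfp36l2 were called higher in iMK after quantile normalization (limma adjusted p = 0.0123 and 0.00939), but not with equal medians.

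Among chromatin regulators, 3 of 12 regions (beside 37.8% of the 508) were higher in ERY (Setd1b, Kmt2e, Kdm5a) and 0 (beside 9.84%) in iMK. This depended on scaling: with equal medians 2 were higher in ERY and 2 in iMK, after quantile normalization 0 and 4, and none of the calls held under all 3. Setd1b had 80.2%, 82.1%, 55.7% and 59.4% (difference 23.6 points, SE 3.29, limma adjusted p = 0.0176), but inside the region alone the difference was -2.68 points (adjusted p = 0.389), and after quantile normalization it was -11.9 points (adjusted p = 0.0967). Inside the region, H3K27ac covered 92.9%, 91.1%, 92.9% and 96.4%. Arid1a had 47.8%, 45.6%, 38.9% and 40.0% (7.22 points, limma adjusted p = 0.156) and Brd2 36.0%, 31.0%, 42.0% and 46.0% (-10.5 points, limma adjusted p = 0.111). Neither was called before scaling. Brd2 was higher in iMK with equal medians (-19.5 points, adjusted p = 0.0133) and after quantile normalization (-33.6 points, adjusted p = 0.00349), and Arid1a after quantile normalization alone (-17.9 points, adjusted p = 0.0415). Kdm6b, an H3K27 demethylase gene, had 3800, 1200, 3800 and 12800 bp of H3K4me3 and 21.1%, 20.2%, 35.1% and 49.1% of H3K27ac (-21.5 points, limma adjusted p = 0.0664), and was called higher in iMK under both other scalings. The Malat1 region had 93.5%, 76.1%, 64.1% and 59.8% (22.8 points, limma adjusted p = 0.0901; -11.2 points after quantile normalization, adjusted p = 0.176).

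Of 6 regions of tumor suppressor and cell cycle inhibitor genes, 2 were higher in ERY and 0 in iMK, but 1 and 2 after quantile normalization. Over the 508 the shares were 37.8% and 9.84%, and 17.1% and 34.8% after quantile normalization. The divergent Trp53/Wrap53 region (chr11:69577201-69582800) had 5600, 3200, 3200 and 5000 bp of H3K4me3 and 89.7%, 92.3%, 29.5% and 37.2% of H3K27ac (difference 57.7 points, SE 4.26, limma adjusted p = 0.00659). Stk11, which encodes the kinase LKB1, was the other, and was not called after quantile normalization. Cdkn1b, which encodes the inhibitor p27, had 4200, 3200, 3800 and 8600 bp and 62.4%, 59.1%, 43.0% and 52.7% (12.9 points, limma adjusted p = 0.126, and -18.1 points with adjusted p = 0.0312 after quantile normalization), and Cdkn2d, which encodes p19, 5400, 4800, 2400 and 6600 bp and 10.8%, 44.6%, 41.0% and 34.9%. In Cdkn2d the 2 ERY libraries lay on both sides of the iMK libraries. Of 5 regions of housekeeping genes 2 were higher in ERY, among them Ywhaz, and of 2 of ribosomal protein genes 1 (Rpl3). After quantile normalization the Ywhaz call was lost, and Actb, Ubb and Rpl18/Sphk2 were called higher in iMK. Actb had 50%, 69%, 50% and 59%, Ubb 34.1%, 26.8%, 31.7% and 30.5%, and Rpl18/Sphk2 39.0%, 33.8%, 33.8% and 40.3%, and in these 3 the groups overlapped. Rpl3 had 59%, 78.2%, 16.7% and 12.8% (53.8 points, limma adjusted p = 0.0189). It was not called without flanks (37.5 points, limma adjusted p = 0.158). Actb, Actg1 and ribosomal protein genes have processed pseudogenes that can share reads.

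The largest ERY differences beyond Fech lay at Ptdss2, Asb1, Slc16a1, Apeh and Ranbp10/Tsnaxip1. Ptdss2 (chr7:141130601-141135600), a phosphatidylserine synthase gene, had 4800, 4000, 1000 and 1600 bp of H3K4me3 and 100%, 100%, 0% and 10.7% of H3K27ac (difference 94.7 points, SE 5.01, limma adjusted p = 0.00597). Slc16a1 (chr3:104636401-104642400), the lactate transporter MCT1 of red cells, had 6000, 5400, 1400 and 2800 bp and 100%, 97.5%, 11.2% and 12.5% (86.9 points, SE 3.23, limma adjusted p = 0.00597). In both, H3K27ac separated the cell types. H3K4me3 length did too, but it entered the choice of regions and is no separate support. Without flanks, Slc16a1 was still called (limma adjusted p = 0.0112) and Ptdss2 was not (84 points, limma adjusted p = 0.0613). Asb1 had 97.4%, 100%, 10.5% and 10.5% of H3K27ac, Apeh, an acylpeptide hydrolase gene, 97.3%, 94.7%, 12% and 10.7%, and Ranbp10/Tsnaxip1 97.6%, 97.6%, 14.6% and 13.4%. The largest ratios of H3K4me3 length toward ERY were at Dhrs11 (6400, 4800, 400 and 2200 bp), Mfhas1 (8200, 4800, 1000 and 2000 bp), Fech and Stradb/Trak2 (7800, 5600, 1800 and 1800 bp). All 4 were also higher in ERY in H3K27ac under all 3 scalings.

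Toward iMK, the largest H3K27ac differences lay at Prkcd, Mapkapk2, Grk2, Fnbp1, Nin and Lrrc8d, all called under all 3 scalings. Without flanks, Fnbp1 and Lrrc8d were still called (limma adjusted p = 0.0390 and 0.0204). Prkcd (0.0669), Mapkapk2 (0.0681), Grk2 (0.0598) and Nin (0.103) were then not called. Prkcd (chr14:30622201-30629200), protein kinase C delta, had 1200, 400, 2200 and 7000 bp of H3K4me3 and 12.9%, 3.53%, 90.6% and 92.9% of H3K27ac (difference -83.5 points, SE 4.72, limma adjusted p = 0.00597). Grk2 (chr19:4298001-4307600), a kinase of G protein-coupled receptors, had 800, 400, 3400 and 9600 bp and 17.3%, 6.12%, 67.3% and 67.3% (-55.6 points, SE 5.06, limma adjusted p = 0.00874). Prkcd and Grk2 reached 5 kb of H3K4me3 in iMK replicate 2 alone. Fnbp1 and Nin were at 0% in both ERY libraries, with 41.8% and 68.3%, and 41.3% and 61.3%, in iMK, which says that no peak was listed there and not that the mark was absent. Mapkapk2, a kinase downstream of p38, had 14.3%, 3.90%, 58.4% and 71.4%. The largest ratios of H3K4me3 length toward iMK were at Zbtb7b (1200, 600, 8000 and 13200 bp), Psap, which encodes the lysosomal prosaposin (1400, 800, 4800 and 10200 bp), Actg1 (1600, 800, 3200 and 11200 bp) and Grk2. Zbtb7b had 21.6%, 11.2%, 54.3% and 51.7% of H3K27ac (-36.6 points, SE 4.80, limma adjusted p = 0.0158). Psap (-39.1 points, limma adjusted p = 0.0947) and Actg1 (-28.8 points, limma adjusted p = 0.0545) did not pass before scaling. Both were called higher in iMK with equal medians (limma adjusted p = 0.00573 and 0.00330) and after quantile normalization (0.00171 and 0.00122). Of the platelet list, Myh9, which encodes nonmuscle myosin IIA, had 59.7%, 59.7%, 74.0% and 83.1% (-18.8 points, limma adjusted p = 0.0499; higher in iMK under all 3 scalings), and Creb3/Tln1 had 45.1%, 42.7%, 24.4% and 48.8%, with overlapping groups. The neutrophil and monocyte genes marked in the libraries labelled iMK move with these results, and their part in them was not tested.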

How the data were processed

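The members and gene lists were chosen with earlier results of these data known. The authors called peaks library by library. Bowtie 1.0.0, SICER 1.1 and build mm10 stand in the submitters' processing notes, although the methods of the study name MACS as caller. All peak edges lay on multiples of 200 bp. For each peak the authors deposited positions, a fold (ratio over control), a p-value and a q-value, and only positions entered the main results. The lists give no read depth, so no interval that needs it is given, and list length depends on depth and background of a library and its control. By the study's methods, replicates came from different groups of mice or from separately processed sorter aliquots of 1 group, and which holds here is not given in the sources used here, so p-values measure the spread between these libraries, which may be technical.

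Peaks sharing 1 bp were merged. Covered length is the number of bases of a region under a library's peaks. Genes and starts came from GENCODE vM21 (GRCm38), bases from GRCm38.p6. Promoter windows come from RefSeq (458 gene symbols of broad regions matched). H3K27ac coverage (percent of region with 5 kb on each side) was compared by limma 3.58.1 in R 4.3.3 with a trend, over 4576 shared regions, with Benjamini-Hochberg adjustment and 0.05 as the threshold. Tested on simulated data for this comparison with 4576 regions, it recovered 48% and 52% of differences of 30 and -30 points, and 6% of those of 15 or -15. Regions are named by protein-coding starts inside them. Named were the 10 widest by median length, the 5 widest by smallest length, the 6 largest H3K27ac differences each way among calls, the 4 largest length ratios each way, up to 3 on each side of 5 kb, up to 4 members per list and up to 3 regions without a start. Some regions that the rule names are not reported here. Others are marked as chosen after their values were seen. The effect of the alternatives is given at the end, where 2 added later are marked.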

Additional observations from a re-analysis of the deposited data

How the results depend on the processing

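No paired analysis was possible because the labels carry no replicate numbers. The number of regions was 1126, 244 and 26 at minimum widths of 4, 6 and 10 kb, 65 when each library had to cover at least 50% of the region, 42 by a median covered length of 5 kb, and 428 to 575 without ERY replicate 1, ERY replicate 2 or iMK replicate 1, but 129 without iMK replicate 2. Joining gaps of up to 1 kb (602), equal numbers of top peaks (440) and a fold of at least 3 (343) kept it within 1.5 times. After the data were seen, 2 definitions were added: regions among the longest of every library by rank (117) and 5 kb in every library (6). H3K27ac calls (higher in ERY and in iMK, 192 and 50 at first) were 103 (20.3%, beside 13.8% of all) and 34 (6.69%, beside 2.67%) without flanks. They were 87 and 177 after quantile normalization (beside 16.0% and 14.9%), and 174 and 121 with equal medians (beside 22.2% and 23.0%). Calls were 429 (38.1%) and 82 (7.28%) at 4 kb, 90 (36.9%) and 30 (12.3%) at 6 kb, and 9 (34.6%) and 2 (7.69%) at 10 kb. By rank they were 51 (43.6%) and 2 (1.71%). Beside the width and rank settings were 29.1% and 4.09% of all regions. Leaving out an H3K27ac library gave 0 to 94 and 0 to 11 calls, and leaving out an H3K4me3 library 89 to 216 and 1 to 88. Other flanks, log2 scale, variance models, filters, chromosomes and top peaks moved neither count by over 1.5 times. Of 56 named regions, 15 changed sign after quantile normalization. Called before or after were Setd1b -11.9, Foxo3 -8.71, Bcl11a -8.87, Junb -13.3, Ehbp1l1/Fam89b -12.4, Lockd -17.6, Arid1a -17.9, Kmt2e -0.28, Pim1 -25.7, Cdkn1b -18.1 and Actb -26.6 points, and called neither before nor after were Malat1 -11.2, Creb3/Tln1 -14.7, Cdkn2c -9.13 and Ube2d3 -8.18 points. Setd1b did so without flanks (-2.68), and 17 others of the 56 were then no longer called. The cause was not tested, and unknown depth limits all lengths.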
